A study of Mus musculus with 4 samples.

Results

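The members are the heat shock proteins and chaperones that the array measured in area CA1 of the mouse hippocampus. They were taken by gene symbol from the annotation of the array. A member is a probe set, the group of short probes that reads 1 transcript, that was annotated with exactly 1 symbol beginning with Hspa, Hspb, Hspd, Hspe, Hsph, Hsp90, Dnaj, Pdia or Cct plus a digit, or with the symbol Calr, Canx or Tcp1. This gave 88 probe sets of 62 genes, out of 12422 probe sets that were not controls. By the main place of the protein, with the nucleus and the vesicle surface counted to the cytosol, 56 probe sets of 40 genes were assigned to the cytosol, 21 of 13 genes to the endoplasmic reticulum and 7 of 6 genes to the mitochondrion. The other 4 probe sets, of 3 genes, lie outside these compartments or have no sure place.

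Chaperones bind proteins that are not yet folded or have come unfolded, and keep them from clumping until they reach their final shape. Members of the Hsp70 family grip short stretches of the chain and release them in a cycle driven by ATP. J proteins deliver the client and start that cycle, and exchange factors reset it. Hsp90 acts on clients that are nearly folded, chaperonins enclose a client in a barrel, and small heat shock proteins hold unfolded proteins in reserve. The cytosol, the endoplasmic reticulum and the mitochondrion each have their own set. Cytosolic members are known for induction by heat through heat shock factors, and those of the endoplasmic reticulum for induction by the unfolded protein response. Neurons of the hippocampus are known for high constitutive levels of several of them.

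All 4 samples were total RNA from CA1 of young male mice of the inbred strain C57BL/6J, with no engineered allele named in the labels. They were controls that the experimenter handled and that got no other treatment. RNA was taken 1, 2, 4 and 6 hours after the last shock given to other mice, with 1 sample at each hour, and RNA of the shocked mice was not analysed here. Whether a sample came from a single mouse or from a pool is not stated in the labels, so hour, animal, dissection and array cannot be told apart, and a p-value measures only the spread between these samples. In a tissue sample, fewer cells of a type and less RNA per cell cannot be told apart either.

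Signals below are the deposited values on a linear scale, named in the order of the hours 1, 2, 4 and 6. Differences and ranges are log2 differences of the normalized values, folds come from the same values and so can depart from the ratio of the signals, and a difference is a sample's value less the mean over the remaining 3, given with their SD. A probe set was tested where its mean reached a signal of about 105. Of the 88 members 72 were tested, from 56 genes, and they carry the counts that follow. Levels of different probe sets were not set against each other, since probes differ in brightness.

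The tissue label was read against marker genes. Wfs1, a marker of CA1 pyramidal neurons, had signals from 1964 to 2797, and Camk2a, abundant in pyramidal neurons, was dim on this array, at 29.7 to 94.9. Markers of neighbouring fields were measured too. Of the dentate gyrus, Prox1 had 25.1 to 59.8, Tdo2 38.0 to 162 and Dsp 175 to 330.0, and of CA3 and CA2, Bok had 645 to 845 and Rgs14 5017 to 5790.3, while Pcp4 was below the floor. Of the 7 CA1 and pyramidal markers, 4 had a probe set, with a summed signal between 3732 and 4389. The 1-hour sample stood apart. The signal of Gapdh control probes at the 3' end was 4.52 times that at the 5' end there, against 1.18 to 1.37 in the other 3. For beta-actin the ratio was 2.34 at 1 hour and 1.76 to 2.00 in the others. All 5 choroid plexus markers had a probe set, and their summed signal was 3316 at 1 hour against 936 to 1253, with Ttr at 2246 against 143 to 353. The sum rests mostly on Ttr. Calml4 and Folr1 were also highest at 1 hour, at 228 against 62.8 to 142 and 113 against 41.1 to 55.9. Kl had 263 at 1 hour against 172 to 252, and Igfbp2 465 against 358 to 597. The part of these in the results for the 1-hour sample was not tested, and only some of the results are given without it too.

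Most chaperone signals stayed within a narrow band over the 4 samples. The median range of the 72 tested members, highest minus lowest, was 0.58 log2 units, beside 0.56 over all tested probe sets, and their median SD was 0.27, beside 0.25. A range of 1 log2 unit or more, which is 2-fold, was seen in 12 members (16.7%), beside 17.9% of all tested probe sets. Without the 1-hour sample 6 members (8.33%) had such a range, beside 9.04%. Without the 2-hour sample 7 did, beside 1027 of 7453 probe sets in all. The members thus spread about as widely as the array as a whole. By compartment the 12 were 6 of 45 in the cytosol, 4 of 17 in the endoplasmic reticulum and 2 of 7 in the mitochondrion. The 1-hour sample was the lowest in 3 of them and the highest in 4.

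**Figure D1:**
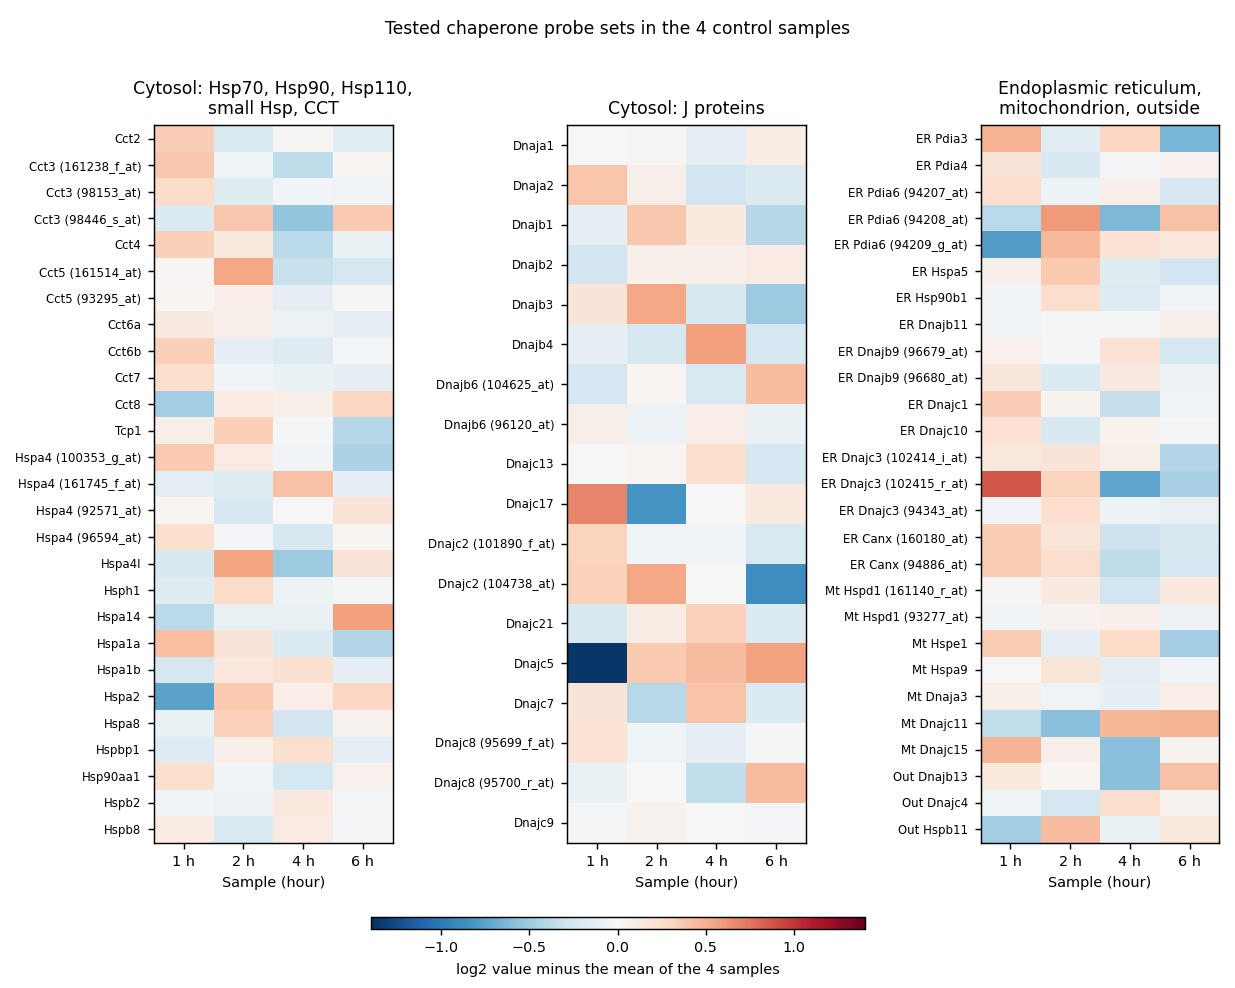
Heat maps of the 72 tested chaperone probe sets (rows) in the samples at 1, 2, 4 and 6 hours (columns), coloured by the log2 value minus the mean of the 4 samples, red above and blue below. ER, Mt and Out mark the endoplasmic reticulum, the mitochondrion and members outside the compartments, and the darkest cell is Dnajc5 at 1 hour.

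No member passed the test for a trend with hour. A line fitted over the 4 samples with limma called 0 members at an adjusted p under 0.05, and 0% of all tested probe sets. At an unadjusted p under 0.05 there were 6 members, 2 upward and 4 downward, against 6.24% of all. These 6 all had an adjusted p of 0.74 in limma. Fitted from 1 to 6 hours, the upward ones were Dnajc5 (1.51) and Dnajc11 (1.07). The downward ones were Hspa1a (-0.83), Canx (-0.70, probe set 94886_at), Dnajc2 (-1.28, 104738_at) and Dnajc3 (-1.40, 102415_r_at). Coefficients were positive in 26 members and negative in 46, beside 3515 and 3938 of all 7453 tested probe sets. The median was -0.08 in members, beside -0.02 over all tested probe sets.

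Dnajc5 was the member that stood furthest out. It encodes cysteine string protein, the J protein on the surface of synaptic vesicles, which with the constitutive Hsp70 keeps the vesicle fusion machinery folded. Its signals were 164, 561, 570 and 639. The 1-hour sample was low, and the other 3 lay close together, with a range of 0.19 log2 units. The 1-hour value was 3.51-fold lower than the mean of the other 3, a difference of -1.81 (SE 0.23, SD of the other 3 0.10), with an adjusted p of 0.0113 in limma. This was 1 called member, a lower one, while 2.35% of all tested probe sets were called in that sample. The call depends on the model. The difference stayed at -1.81 with a higher floor or a prior without an intensity trend, but the adjusted p in limma was then 0.0632 and 0.067. The part of the transcript read by this probe set was not used here, and the 3' to 5' ratio and the choroid plexus markers moved with the same sample.

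At an unadjusted p under 0.05 in limma, 6 members differed in the 1-hour sample, against 15.8% of all tested probe sets. Hsp90aa1 and Dnaja2 were the higher ones, and Dnajc5, Hspa2, Cct8 and Pdia6 (94209_g_at) the lower ones. Of these only Dnajc5 passed the adjustment. A difference of 2-fold or more above the other samples was seen for 1 member, Dnajc3 (102415_r_at, 1.16), beside 1.78% of all. Dnajc5, Hspa2 (-1.004) and Pdia6 (94209_g_at, -1.05) were 2-fold or more below, beside 4.56% of all.

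In the later samples no member was called. At 2 hours limma called 0 members and 0% of all tested probe sets, and at an unadjusted p under 0.05 it found 0 members beside 2.64%. No member was 2-fold above the other samples there, beside 1.27% of all, and 1, Dnajc17, was 2-fold below, beside 1.72%. At 4 hours limma again called 0 members and 0% of all. Unadjusted there were 2, Dnajb4 higher and Dnajc15 lower, beside 2.76%. None was 2-fold above (1.07% of all) or 2-fold below (1.93% of all). At 6 hours it called 0 members and 0% of all. Unadjusted there were 2, Dnajc2 (104738_at) and Hspe1, both lower, beside 2.27%. None was 2-fold above (1.49% of all), and Dnajc2 (104738_at) was 2-fold below (1.61% of all).

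**Figure D2:**
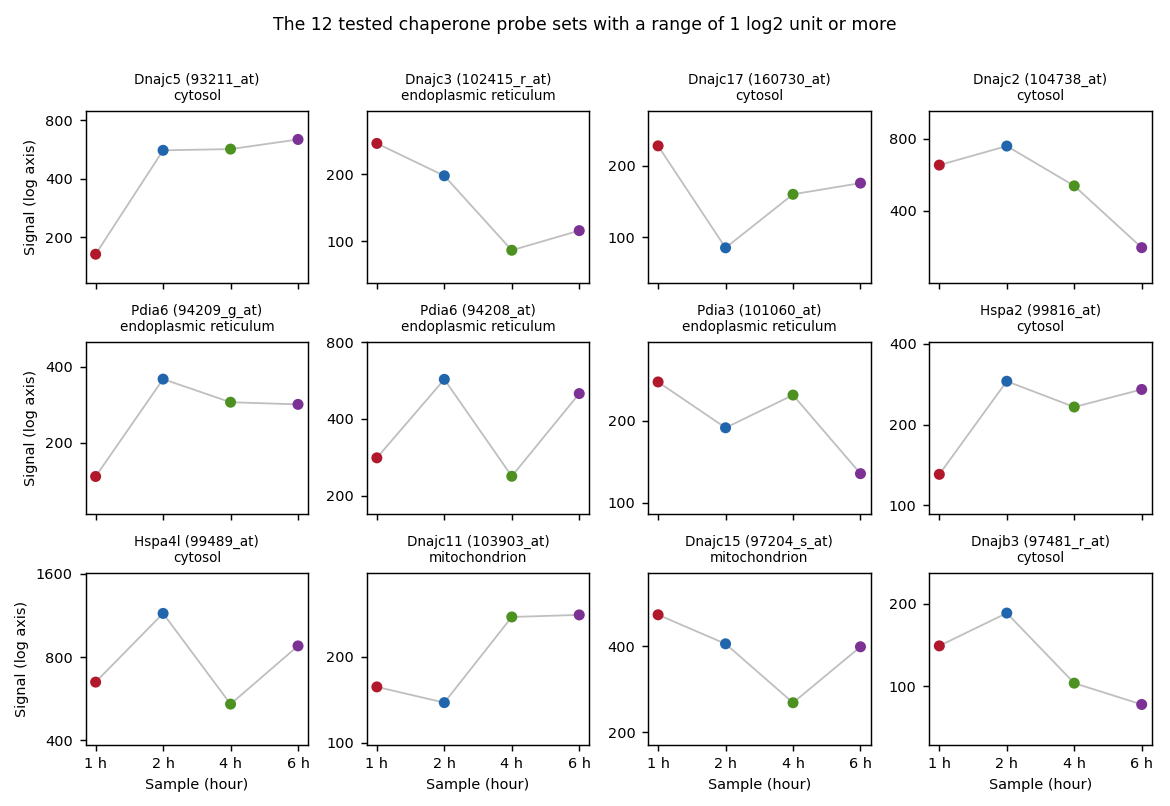
Deposited signal (log axis, scaled for each panel) in the samples at 1, 2, 4 and 6 hours, evenly spaced, for the 12 tested chaperone probe sets with a range of 1 log2 unit or more; grey lines join the 4 single samples. Dnajc5 and Hspa2 are low at 1 hour alone, Dnajc2 is lowest at 6 hours, and Hspa4l and a Pdia6 probe set alternate.

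Among the cytosolic Hsp70 proteins, Hspa8, the constitutive Hsc70 of neurons, had signals of 5406, 6739, 4606 and 5729. The 2-hour sample was the highest and the 4-hour sample the lowest, 1.51-fold apart. The stress-inducible Hsp70 is encoded by the near-identical copies Hspa1a and Hspa1b, between which probes can share signal. Hspa1a had 662, 583, 442 and 385, each sample below the one before, over a range of 0.82 log2 units. Hspa1b had 303, 412, 423 and 338, with the 1- and 6-hour samples low, so the copies did not follow the same order. Hspa2, a relative known from testis and brain, had 131, 290, 233 and 271. The 1-hour sample was 2.01-fold below the mean of the other 3 (SE 0.32 on the log2 scale), with an adjusted p of 0.175 in limma. Without it the range was 0.28. Hspa14, which works at the ribosome, had 138, 172, 166 and 270, highest at 6 hours.

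The promoters of the inducible pair also carry the same element. Of the 62 member genes 54 had a promoter window, 250 bases before to 50 after the start, in the RefSeq table of GRCm38.p6. The 8 others were Hsp90aa1, Hspa8, Hspa9, Dnajc5, Cct4, Dnajc2, Dnajc11 and Hspb2. The windows of Hspa1a and Hspa1b had the same base at 296 of 300 positions. Heat shock factors bind repeats of GAA and its reverse TTC, and both strands were searched for the 2-unit forms GAANNTTC and TTCNNGAA. Hspa1a and Hspa1b each held 1 match, 96 bases before the start, at chr17:34972233-34972280 and chr17:34959315-34959362, both on the minus strand. The stretch is shown because it is letter for letter the same in both, with the match in capitals.
Hspa1a and Hspa1b: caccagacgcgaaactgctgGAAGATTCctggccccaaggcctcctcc
A 2-unit match was found for 14 of 54 member genes (25.9%), beside 17.0% of 27025 genes in the table, and for 11 of 34 in the cytosol (32.4%). These letters are a description and no evidence of binding. The 16 tested probe sets of genes with a match had a median range of 0.43, beside 0.56 over all tested probe sets. Of these 0 reached 1 log2 unit, beside 17.9% of all. Dnajc5, Dnajc2 and Dnajc11, which reached it, had no window and so could not enter this group. The difference was not tested.

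The exchange factors of Hsp70 varied by gene. Hsph1, the Hsp105 of the Hsp110 family, had signals of 3641, 4705, 3869 and 3937, with the 2-hour sample highest by 0.35 log2 units (SD of the other 3 0.08). Hspa4l, its relative, had 649, 1150, 541 and 878. The 2- and 6-hour samples were above the others, and the range was 1.06. Hspa4, the third of the family, had 5 probe sets. The brightest (96594_at) had 4484, 3589, 3232 and 3746. Probe set 100353_g_at had 245, 217, 189 and 144, and 92571_at had 149, 130, 143 and 166. These are opposite ends of the hours for 1 gene, since the 6-hour sample was lowest in the former and highest in the latter. Probe set 161745_f_at had 122, 123, 174 and 120, with the 4-hour sample alone high, and 100352_at was too dim to test, at 38.2 to 91.2. Hspbp1, an exchange factor of another family, had 1078 to 1456, highest at 4 hours.

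Hsp90aa1, the inducible cytosolic Hsp90, had signals of 23949.5, 17453, 16018 and 18445. The 1-hour sample was the highest, by 0.30 log2 units (SD of the other 3 0.16, SE 0.12), with an adjusted p of 0.303 in limma. Its other probe set (161869_i_at) was not tested, at 26.8 to 74.3. Among the small heat shock proteins, Hspb8, a partner of Bag3 in clearing aggregates, had 439 to 536, and the bright Hspb2 probe set (103215_g_at) had 416 to 483. Their ranges were 0.33 and 0.23 log2 units. Hspb1, the Hsp25 of mouse, was too dim to test, at 106, 63.9, 80.7 and 32.6, so no change of it can be read.

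J proteins of the cytosol gave the widest and the narrowest of the members. Dnajc9, a nuclear histone chaperone, had signals of 605, 661, 630 and 629, a range of 0.08 log2 units, the smallest of the 72. Dnaja1, a main partner of Hsc70, had 5768, 5448, 5156 and 6013, also with all samples close together. The bright Dnajb6 probe set (96120_at) had 4450, 3820, 4362 and 3791, a range of 0.19. Dnajb6 is known as a suppressor of polyglutamine aggregates, and its other probe set (104625_at) had 348 to 580, highest at 6 hours. Dnajb1, the Hsp40 induced with Hsp70, had 700, 1018, 844 and 596. The 2-hour sample was the highest and the 6-hour sample the lowest, with a range of 0.78. Dnaja2 had 1184, 991, 756 and 805, a 1-hour difference of 0.51 (adjusted p 0.293 in limma).

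Other wide ranges among the J proteins of this group came from 3 genes. Dnajc17, a nuclear protein, had signals of 242, 90.4, 152 and 169, 2.87-fold from the lowest sample, at 2 hours, to the highest, at 1 hour. Dnajc2, the ribosome-associated zuotin, had 622, 747, 509 and 281 on probe set 104738_at. Its 6-hour sample was low, by -1.16 (SD of the other 3 0.27). Probe set 101890_f_at of the same gene had 736, 589, 573 and 527, with a 6-hour difference of -0.28. Both thus had their lowest signal at 6 hours, but by different amounts. Dnajb3, known from testis, had 140, 185, 103 and 85.8 on probe set 97481_r_at and was too dim to test on 97480_f_at.

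The remaining tested J proteins of the cytosol had ranges up to 0.81 log2 units. Dnajb4 had 261, 254, 429 and 248, with the 4-hour sample alone high. Dnajb2, the neuronal Hsj1, had 565, 737, 733 and 764, with the 1-hour sample alone low. Dnajc7 had 604, 421, 712 and 480. Dnajc8, a nuclear protein of splicing, had 3447 to 4449 on probe set 95699_f_at and 664 to 1143 on 95700_r_at. Dnajc13, found on endosomes, had 250.1 to 337, and Dnajc21, of ribosome maturation, had 219 to 323. Dnajb5 and Dnajb8 were too dim to test, at 27.9 to 82.0 and 21.6 to 81.2, as was Hspa1l, a testis Hsp70, at 43.2 to 188.

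The cytosolic chaperonin, CCT, is a barrel of related subunits that folds actin and tubulin. Its subunits had 12 tested probe sets, and 10 of them were higher in the 1-hour sample than the mean of the other 3 (83.3%), beside 54.7% of all tested probe sets. The median difference was 0.24, beside 0.05. The count was 8 of 12 without the 4-hour sample, and also without the 6-hour one. At 4 hours 10 of the 12 were lower, with a median of -0.15, beside 3666 of 7453 and 0.01 over all. These counts were not planned before the values were seen, and some probe sets share a gene. Cct2 had signals of 390, 276, 314 and 286, Cct4 had 2076, 1770, 1275 and 1541, and Cct7 had 2392, 1931, 1927 and 1862. In each the 1-hour sample was the highest. Over the 12, 7 had their highest value at 1 hour (58.3%), beside 35.1% of all tested probe sets. Cct8 went the other way, at 326, 511, 490 and 578, where the 1-hour sample was lowest by -0.65 (SD of the other 3 0.11). A Cct3 probe set (98446_s_at) was also lower at 1 hour, by -0.26. So subunits of 1 complex lay on opposite sides of the other samples. None of the 12 was called, beside 2.35% of all tested probe sets in the 1-hour sample.

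Tcp1, the alpha subunit, had 337, 414, 315 and 247 on its tested probe set, with the 2-hour sample highest. Cct5 had 2887, 2942, 2617 and 2822 on probe set 93295_at, a range of 0.23 log2 units, and 235, 352, 188 and 201 on 161514_at, where the 2-hour sample stood above. Cct6a had 1064, 1049, 929 and 923 on its tested probe set, and Cct6b, the testis form, 120 to 173. Cct3 had 3 tested probe sets, 2 of them highest at 1 hour (1023 on 98153_at and 758 on 161238_f_at). The third, 98446_s_at, had 605, 931, 482 and 921 and was lower at 1 hour. Without the 1-hour sample the median SD of the 12 was 0.12. A range of 1 log2 unit was reached by 0 of the 12 with or without that sample, beside 17.9% and 9.04% of all tested probe sets. The 3' to 5' ratio was highest in the same sample, and its part in the subunits' difference was not tested.

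In the endoplasmic reticulum, Hspa5 encodes BiP, the Hsp70 that holds incoming chains and the sensors of the unfolded protein response. It had signals of 1921, 2289, 1606 and 1521. The 2-hour sample was the highest, 1.55-fold above the 6-hour one. Hsp90b1, the Grp94 of the same lumen, had 2406, 2905, 2213 and 2399, also highest at 2 hours. The 2-hour difference was 0.49 (SD of the other 3 0.18) for Hspa5 and 0.33 (0.08) for Hsp90b1, and limma called neither.

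Calnexin and calreticulin are lectins that hold newly made glycoproteins. Canx had 818, 772, 503 and 550 on probe set 94886_at and 369, 337, 238 and 255 on 160180_at. On both, the 1- and 2-hour samples lay above the 4- and 6-hour ones. How often this order occurs over all probe sets was not counted. Calr was too dim to test, at 7.8, 10.9, 62.7 and 34.8.

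Disulfide isomerases form and shuffle the sulphur bridges of secreted proteins. Pdia3, the ERp57 that works with calnexin, had 277, 188, 248 and 128, lowest at 6 hours, with a range of 1.13 log2 units. Pdia4 had 235, 186, 208 and 223, a range of 0.40. Pdia6, the P5 protein, had 3 tested probe sets with different orders. Probe set 94208_at had 282, 572, 239 and 503, and 94209_g_at had 148, 357, 290 and 284, with only the 1-hour sample low. The third, 94207_at, had 338, 286, 305 and 251, with the 1-hour sample high. Pdia5 was too dim to test, at 12.9 to 69.8.

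The J proteins of this compartment had ranges up to 0.67 log2 units, apart from a Dnajc3 probe set. Dnajb11, a cofactor of BiP, had signals of 326, 341, 331 and 364, a range of 0.12 log2 units. Dnajb9, which ties BiP to the stress sensor Ire1, had 402 to 493 on probe set 96680_at and 107 to 144 on 96679_at. Dnajc10, a reductase that prepares proteins for disposal, had 630 to 832, and Dnajc1 had 135 to 215 on its tested probe set. Dnajc3 encodes P58IPK, an inhibitor of the kinase PERK, and had 3 tested probe sets. Probe set 94343_at had 361, 460, 360 and 361, with the 2-hour sample alone high, and 102414_i_at had 375, 399, 363 and 263, with the 6-hour sample alone low. The third, 102415_r_at, had 276, 197, 90.9 and 112. The names of 102414_i_at and 102415_r_at carry an extra letter. In all, 16 of the 72 tested members carry such a letter (s, f, r, i or g), and some of these letters mark probes that may match other transcripts.

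The endoplasmic reticulum stress element is the sequence through which Atf6 and Xbp1 drive chaperone genes. It was searched on both strands as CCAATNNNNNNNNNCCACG, a form chosen after the promoter table had been seen. It was found for 6 of 13 member genes of the endoplasmic reticulum (46.2%), beside 37 of 27025 genes (0.137%), and for 0 of 34 in the cytosol and 0 of 4 in the mitochondrion. The 6 were Hspa5, Hsp90b1, Pdia6, Dnajc3, Canx and Calr, and Hsp90b1 held 2 matches. All matches lay before the start, from 46 bases (Hspa5) to 193 bases (Hsp90b1). They are shown on the strand of the gene with 20 bases on either side and the element in capitals, because they let the 9 bases between, which the search left free, be compared. In Calr and the second Hsp90b1 site the element runs on the other strand and reads CGTGG before ATTGG.
Hspa5, chr2:34772005-34772063, plus strand: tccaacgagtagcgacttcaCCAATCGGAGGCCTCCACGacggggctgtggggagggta
Hsp90b1, chr10:86705618-86705676, minus strand: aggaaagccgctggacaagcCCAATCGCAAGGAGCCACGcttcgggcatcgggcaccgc
Hsp90b1, chr10:86705513-86705571, minus strand: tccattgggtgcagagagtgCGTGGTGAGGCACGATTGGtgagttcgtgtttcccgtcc
Pdia6, chr12:17266471-17266529, plus strand: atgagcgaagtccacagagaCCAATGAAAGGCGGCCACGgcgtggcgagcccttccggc
Dnajc3, chr14:118937807-118937865, plus strand: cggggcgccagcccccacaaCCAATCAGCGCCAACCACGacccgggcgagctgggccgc
Canx, chr11:50325780-50325838, minus strand: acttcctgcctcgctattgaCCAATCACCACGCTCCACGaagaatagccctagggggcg
Calr, chr8:84847055-84847113, minus strand: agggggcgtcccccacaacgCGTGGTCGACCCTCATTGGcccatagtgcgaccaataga

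The 5 of these genes that could be tested had 10 tested probe sets, of 12 in all. In the 2-hour sample 9 of the 10 were above the mean of the other 3 (90%), beside 51.5% of all tested probe sets. The exception was a Pdia6 probe set (94207_at, -0.09). Without the 1-hour sample it was 10 of 10. The median difference was 0.15 at 1 hour, 0.33 at 2 hours, -0.24 at 4 hours and -0.31 at 6 hours, beside 0.05, 0.01, 0.01 and 0.00 over all tested probe sets. None of the 10 was called at any hour, several share a gene, and the group was formed after its values had been seen. The summed signal of the 5 endothelial markers was also highest at 2 hours, at 1676 against 948 to 1281, as was that of 4 astrocyte markers, at 16022 against 13665 to 14762. Single markers differed, since Cdh5 was highest at 4 hours, Pecam1 and Gfap at 1 hour and Slc1a2 at 6 hours. The astrocyte sum rests mostly on Aldoc (12442 at 2 hours). The part of either marker set in the 2-hour differences was not tested.

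**Figure D3:**
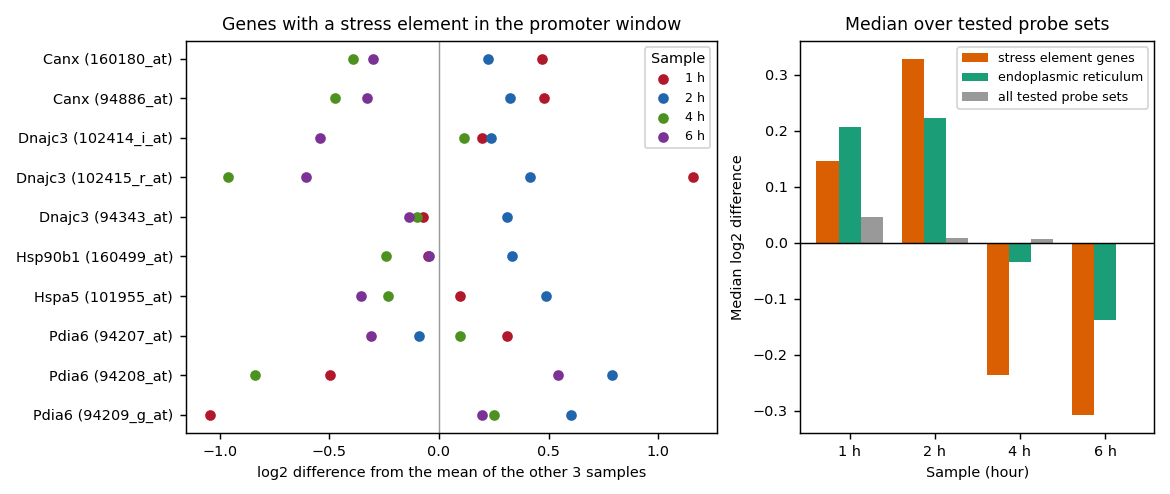
Left, log2 difference of each sample (colour) from the mean of the other 3 for the 10 tested probe sets of genes with the stress element; right, the median difference over these, over the 17 tested members of the endoplasmic reticulum and over all tested probe sets, for the samples at 1, 2, 4 and 6 hours. The 2-hour points lie right of 0 in 9 of 10 probe sets, and the medians of the stress element genes are 0.33 at 2 hours and -0.31 at 6 hours.

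Over all 17 tested probe sets of the endoplasmic reticulum the median differences were 0.21, 0.22, -0.04 and -0.14 at 1, 2, 4 and 6 hours. In the 6-hour sample 13 of 17 were below the mean of the other 3, beside 3724 of 7453 over all. In the cytosol the medians were 0.04, 0.07, -0.06 and -0.03, and in the mitochondrion 0.02, 0.07, -0.16 and 0.06. Without the 1-hour sample those of the endoplasmic reticulum were 0.28, -0.11 and -0.17 at 2, 4 and 6 hours. The 2-hour median of the endoplasmic reticulum was 0.06 without the 6-hour sample, 0.10 without the 4-hour sample and 0.06 with the brightest probe set of each gene. Its 6-hour median was -0.22 without the 2-hour sample and -0.26 without the 4-hour sample. Mitochondrial medians at 1, 2 and 6 hours changed sign without the 4-hour sample. The medians were not tested.

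In the mitochondrion, Hspd1 and Hspe1 encode Hsp60 and Hsp10, the barrel and lid of the chaperonin there. Hspd1 had signals of 6024, 5961, 6307 and 5627 on probe set 93277_at, a range of 0.16 log2 units, and 287, 325, 239 and 322 on 161140_r_at. Hspe1 had 2480, 1750, 2346 and 1395, with the 2- and 6-hour samples low, a range of 0.84. The 6-hour difference of Hspe1 was -0.65 (SD of the other 3 0.25, unadjusted p 0.0401 in limma). The range of Hspe1 was thus wider than that of either Hspd1 probe set, 0.40 on the dimmer.

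These partners are read from 1 shared promoter in opposite directions. A window of Hspd1, chr1:55087883-55088182 on the minus strand, and that of Hspe1, chr1:55087898-55088197 on the plus strand, shared 285 bases. The shared part holds overlapping matches to the 3-unit heat shock forms GAANNTTCNNGAA and TTCNNGAANNTTC, which contain the 2-unit forms. A 3-unit match, a form also chosen later, was found for 4 member genes, Hspd1, Hspe1, Dnajb6 and Hsph1, beside 0.662% of all genes. The run of the chaperonin pair and that of Dnajb6 are shown as the 3-unit matches that lie before the start, in capitals.
Hspe1, chr1:55088039-55088096, plus strand: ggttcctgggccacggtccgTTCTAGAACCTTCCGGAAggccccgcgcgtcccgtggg
Dnajb6, chr5:29735832-29735884, plus strand: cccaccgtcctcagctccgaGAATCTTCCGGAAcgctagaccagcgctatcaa

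Hspa9, the mitochondrial Hsp70 mortalin, had signals of 2456, 2739, 2284 and 2393, a range of 0.30. Dnaja3, its J protein, had 1497, 1358, 1302 and 1520, a range of 0.21. Dnajc11, which helps to shape the inner membrane, had 157, 138, 275 and 280. Its 1- and 2-hour samples lay below the others, an order whose share over all probe sets was not counted. The lowest and the highest were 2.09-fold apart. Dnajc15, linked to the import motor, had 515, 407, 254 and 398, lowest at 4 hours, by -0.78 (SD of the other 3 0.24). Outside the 3 compartments, Hspb11, a part of intraflagellar transport, had 136, 261, 176 and 212. Dnajb13 of the sperm flagellum had 229, 219, 137 and 281 on its tested probe set, and Dnajc4, whose place is unsure, had 255 to 340.

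The 16 members that were not tested belong to genes named above, and for 6 genes, Hspa1l, Hspb1, Dnajb5, Dnajb8, Calr and Pdia5, no probe set was tested. In 4 of the 16 all samples were below the floor, a signal of 35.1, where a value is only an upper bound. These are the second probe sets of Tcp1 (3.5 to 23.4), Hspb2 (15.2 to 19.0), Hspb8 (6.5 to 19.7) and Dnajc1 (2.4 to 30.2). The second Cct6a probe set had 114 at 1 hour and 28.8 to 44.2 in the other samples. Second or further probe sets of Dnajb3 (67.4 to 85.6), Dnajb13 (50.6 to 123.5) and Dnajc3 (3.2 to 38.3) were also dim.

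Probe sets of a gene did not always share the sign of the 1-hour difference. For 11 genes more than 1 probe set was tested. In 4 of them, Canx, Cct5, Dnajb9 and Dnajc2, the 1-hour difference had the same sign in all probe sets. In the other 7, Cct3, Dnajb6, Dnajc3, Dnajc8, Hspa4, Hspd1 and Pdia6, it did not. For Pdia6 it ran from -1.05 to 0.31 and for Dnajc3 from -0.07 to 1.16. For Hspd1 it was small, from -0.053 to 0.016. How often signs differ over all genes with several probe sets was not counted. For these 7 genes no direction can be given from 1 probe set.

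**Figure D4:**
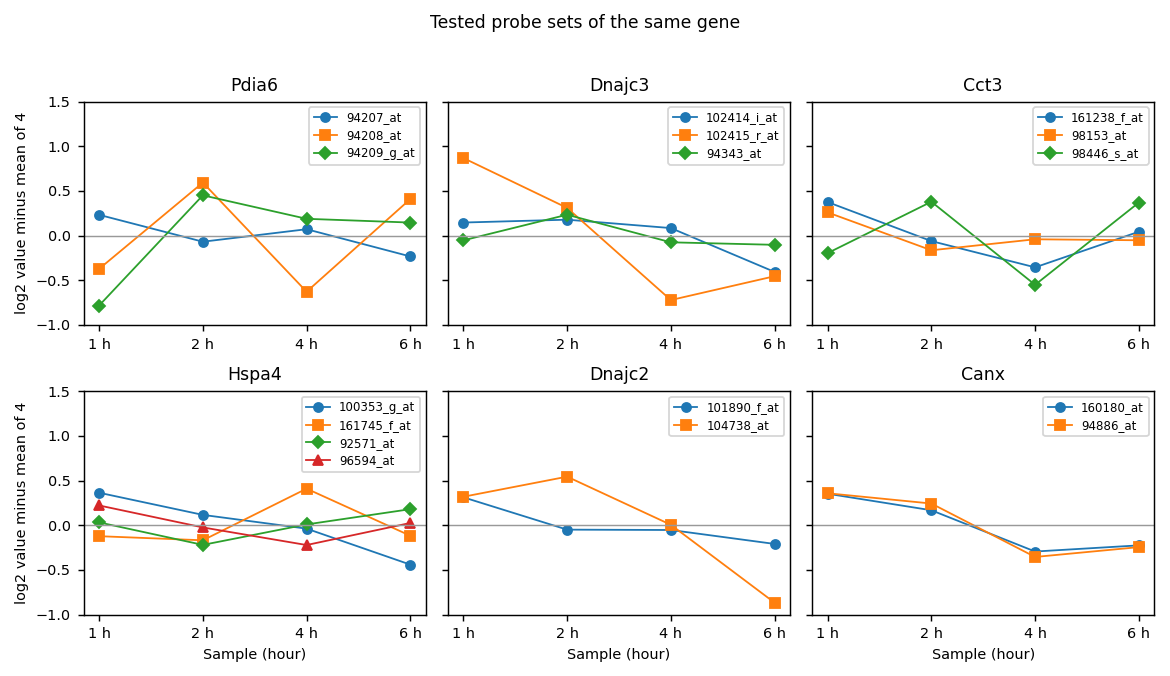
Log2 value minus the mean of the 4 samples at 1, 2, 4 and 6 hours, evenly spaced, for the tested probe sets (colours and markers) of Pdia6, Dnajc3, Cct3, Hspa4, Dnajc2 and Canx; lines join the 4 single samples. The Canx probe sets overlie each other, while those of Pdia6 run from -1.05 to 0.31 in the 1-hour difference.

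A few patterns over the samples recurred among members. The 2- and 6-hour samples were both above the 1- and 4-hour samples in 14 of 72 members (19.4%), as in Hspa4l, Hspa8 and Pdia6 (94208_at), beside 16% of all tested probe sets. A single sample far from the other 3, with a gap past Dixon's critical value for 4 samples, was seen in 7 members (9.72%), beside 6.75% of all. These shares were close to those of the array.

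Other genes of the same machinery were described for comparison, 65 probe sets of 49 genes that are no members, of which 54 were tested. The trend called 0 of them, and 3 had an unadjusted p under 0.05 in limma, beside 6.24% of all. A range of 1 log2 unit or more was seen in 10 of 54 (18.5%), beside 17.9%, and in 3 without the 1-hour sample, beside 9.04%. In the 1-hour sample 2 were called, both lower, beside 2.35% of all. Cdc37, which brings kinases to Hsp90, had 862, 2000.3, 1844 and 1738, a difference of -1.09 (adjusted p 0.0211 in limma). Nfe2l1, a regulator of proteasome genes, had 255, 637, 676 and 704 on probe set 101757_at, a difference of -1.35 (adjusted p 0.0211 in limma). Stip1, which hands clients from Hsp70 to Hsp90, had 265, 621, 142 and 550.2. Of the 16 tested probe sets of other genes of the endoplasmic reticulum, 12 (75%) were above the mean of the other samples at 2 hours, beside 51.5% of all. Xbp1 and Manf, both of the unfolded protein response and picked here after their values were seen, were highest at 2 hours like Hspa5. Xbp1 had 727, 969, 649 and 608, and Manf 810.1, 1273, 828 and 819.5, and neither was called. Herpud1 (739 against 346 to 638), Atf6 (317 against 192 to 249) and Atf4 (2673 against 1604 to 2653) were also highest at 2 hours. Some others of that response did not peak there. Creld2 was lowest at 2 hours (199 against 215 to 259), Ddit3 was highest at 6 hours (371) and Eif2ak3 at 1 hour (145).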

How the data were processed

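The deposited table holds 1 column for each array, with 12488 probe sets and a linear intensity (signal) for each. The values show that the authors had scaled every array before they deposited it: with 2% trimmed from either end, the mean signal was 499.9 to 500.2. Array software and labelling are not given in the sources used, and detection calls were not used. The 66 control probe sets were left out. Of the remaining 12422, 10833 had 1 gene symbol in the array's annotation, 396 had several and 1193 had none. All member symbols matched the reference gene table of GRCm38.p6.

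Quantile normalization over the 4 columns came first. A floor was then set at the 20th percentile, a signal of 35.1, before taking log2. Tests covered each probe set whose mean was at or above the 40th percentile, a signal of about 105, which left 7453. Limma 3.58.1 in R 4.3.3 (lmFit, eBayes with an intensity trend) fitted hour as a line, with 2 residual degrees of freedom, and each sample against the other 3, where the single sample is assumed to vary like them. P-values were 2-sided and adjusted by Benjamini and Hochberg over all tested probe sets. The fits were tested on simulated data. The small number of arrays limits the precision.

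The members and lists were chosen with earlier results of these data known. Every member was to be named, with all 4 signals for those with a range of 1 log2 unit or more, for the 2 steadiest genes of each compartment and for preset genes, of which Hsp90ab1 had no probe set under that symbol alone in the annotation used here. Promoter letters were searched in Python 3.11.15 with pandas 2.3.3, and figures drawn with matplotlib 3.10.9. Protein sequences were not analysed here. Alternatives changed the normalization, the floor, the pseudocount, the filter, the probe set of a gene, the prior and the samples.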

Additional observations from a re-analysis of the deposited data

Results flagged for a closer look

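In 7 of the 72 tested members (9.72%) 1 sample lay far from the other 3, beside 6.75% of all tested probe sets. The gap, taken as a share of the whole range of the 4 values, was above Dixon's critical value. Chance alone puts about 5% of groups past this. For Dnajc5 the 1-hour sample was low, with a gap of 0.899 of the range, and for Dnajb2 it was also low, with 0.895. For Dnajb4 the 4-hour sample was high, with 0.853, as it was for Hspa4 (161745_f_at), with 0.912. For Dnajb11 the 6-hour sample was high, with 0.848, although the range was only 0.12 log2 units. Probe sets of Dnajc3 were singled out by different samples, 102414_i_at by a low 6-hour value (0.84) and 94343_at by a high 2-hour value (0.852). Outside the members, the ratio of Gapdh control signal at the 3' end to that at the 5' end was far from the rest in the 1-hour sample, with 0.943.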

How the results depend on the processing

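With 1 sample at each hour and 4 arrays, only large differences can pass a test, and probe sets near the floor have an upper bound alone. No paired analysis was possible because all samples belong to 1 group. The trend called 0 members under all 11 alternatives. At 1 hour limma called 0 members with the floor at the 40th percentile (3 probe sets in all) and 0 with a prior without an intensity trend (0 in all), and 2 of 88 with no filter (365 of 12422 in all), while leaving out a sample kept the count at 1. With no filter it called 2 of 88 members at 4 hours (227 of 12422 in all). The count of members with a range of 1 log2 unit or more was 7 with a pseudocount of 32 (1032 of 7453 in all). It was 21 of 88 with no filter (3433 of 12422 in all). With the filter at the 60th percentile it was 5 of 53 (428 of 4969 in all). It was 6 without the 1-hour sample (674 of 7453 in all) and 7 without the 2-hour one (1027 of 7453). Without the 4-hour sample and without the 6-hour one it was 9 (986 and 1044 of 7453). Compartment medians moved in a few settings. That of the endoplasmic reticulum at 2 hours was 0 with no filter. That of the mitochondrion was -0.057 at 2 hours with equal medians and -0.028 at 4 hours with the brightest probe set of each gene. When 1 sample was left out, the mitochondrial median ran from -0.059 to 0.056 at 2 hours and from -0.092 to 0.178 at 6 hours, and the cytosolic median from -0.12 to -0.039 at 4 hours and from -0.102 to -0.041 at 6 hours. The causes were not tested. The other 166 recomputed values of the main results counted as unchanged by a loose rule. A count did so where it was equal to the main count or within a set fold of it. A median did so where it moved by less than the SD of the 4 medians of its compartment. Among them the mitochondrial median still changed sign, to -0.004 at 2 hours with the values as deposited, to -0.005 at 2 hours with the brightest probe set of each gene and to -0.022 at 1 hour without the 4-hour sample.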
